A study of Homo sapiens with 6 samples.

Results

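The genes described here are 10 targets and components of the YAP and TEAD transcription module, in SUM159 cells with and without a knockdown of TβRIII, the TGF-β co-receptor encoded by TGFBR3. They are TEAD1 and WWTR1, which encode a DNA-binding factor and a coactivator of the module, LATS2, AMOTL2 and AJUBA, which encode regulators that act on it, and CCN1, CCN2, ANKRD1, F3 and AXL, which encode secreted, nuclear and membrane products that it switches on. The list was taken by gene symbol from the deposited values, where each of the 10 genes had exactly 1 transcript cluster (a group of probes read together as 1 gene), out of 18276 genes measured in all. RNA of 3 TβRIII-KD and 3 control samples was hybridized to Affymetrix human gene arrays. The TβRIII-KD samples, labelled TGFBR3KD, were SUM159 cells that stably carried a lentiviral short hairpin RNA against TGFBR3 and had been selected with puromycin, and the controls carried the genotype label control with no vector named there. SUM159 is a widely used human line of breast cancer origin, taken by the study for the mesenchymal-stem like subtype. Both groups were grown in matrigel as three-dimensional cultures, with no further treatment, and are labelled as day 6. Each group is 1 cell population and the sources do not say whether its arrays came from separate cultures, so p-values measure the spread between these arrays, which may be technical. An effect of the hairpin and other differences between these 2 populations cannot be told apart.

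YAP and TAZ (the product of WWTR1) are coactivators that carry no DNA-binding domain and reach DNA mainly through TEAD factors. The Hippo kinases, ending in LATS1 and LATS2, phosphorylate them and hold them in the cytoplasm. Spreading, tension and stiff matrix favour their entry into the nucleus. The transcription factors SRF and AP-1 are taken here as partner factors of the module. CCN1, CCN2 and ANKRD1 are widely read as reporters of this activity, and LATS2 and AMOTL2 are targets that restrain it. In mesenchymal breast cancer lines the module is known for its part in growth and invasion.

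The start regions of 3 members are shown because they differ in the letters that TEAD and AP-1 factors are known to recognise, and because they belong to the member that passed the test (F3) and to 2 classical reporters that did not (CCN2 and ANKRD1). RefSeq windows of the GRCh38.p14 build were found for 8 of the 10 genes, not for CCN1 and TEAD1. Each run below holds the 250 bases before the start of transcription, read 5′ to 3′ in the direction of the gene, all from minus strands, at chr1:94541760-94542009 for F3, chr6:131951373-131951622 for CCN2 and chr10:90921088-90921337 for ANKRD1. Capitals mark the TEAD motif GGAATG, on either strand (as CATTCC on the other one), and the AP-1 motif TGANTCA, which reads alike on both strands. No match overlapped another.
F3: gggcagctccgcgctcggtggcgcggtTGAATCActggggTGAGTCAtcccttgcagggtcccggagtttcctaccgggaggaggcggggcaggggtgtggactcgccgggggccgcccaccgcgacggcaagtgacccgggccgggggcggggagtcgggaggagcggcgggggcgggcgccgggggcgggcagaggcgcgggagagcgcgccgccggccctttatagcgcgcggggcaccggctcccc
CCN2: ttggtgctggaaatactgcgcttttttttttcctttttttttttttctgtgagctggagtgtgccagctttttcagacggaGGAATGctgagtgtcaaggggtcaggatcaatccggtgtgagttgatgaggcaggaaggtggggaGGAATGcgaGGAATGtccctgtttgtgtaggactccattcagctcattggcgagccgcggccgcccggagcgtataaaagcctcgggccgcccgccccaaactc
ANKRD1: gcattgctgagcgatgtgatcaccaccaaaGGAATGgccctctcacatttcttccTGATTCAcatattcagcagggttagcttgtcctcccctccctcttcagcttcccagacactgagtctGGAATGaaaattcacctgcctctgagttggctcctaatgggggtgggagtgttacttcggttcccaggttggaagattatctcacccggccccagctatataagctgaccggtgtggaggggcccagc
The CCN2 window held 3 matches to GGAATG, whose first letters lay 169, 104 and 95 bases before the start, and none to TGANTCA. The F3 window held 2 matches to TGANTCA, 223 and 210 bases before the start, and none to GGAATG. The ANKRD1 window held both, GGAATG at 220 and 128 bases and TGANTCA at 195. Of 35116 RefSeq windows of the same length, 11.9% held GGAATG, 0.0826% held 3 or more, 6.57% held TGANTCA and 0.402% held 2 or more. The 8 members had 12 such windows, since some genes have more than 1, and 5 of the 12 held GGAATG (1 each of CCN2, ANKRD1, AXL, AMOTL2 and AJUBA) and 2 of the 12 held TGANTCA (F3 and ANKRD1). A match is a run of letters and was not tested as a binding site.

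TGFBR3, the gene targeted by the hairpin, had log2 signals of 9.72, 10.01 and 10.16 on the TβRIII-KD arrays, against 10.81, 10.89 and 10.56 on the control arrays. The groups did not overlap, with TβRIII-KD on the low side, and TGFBR3 fell by 0.79 (SE 0.13, log2 scale, adjusted p = 0.0145 from limma). That call was lost without control 1 (adjusted p = 0.0770), control 2 (0.0554) or TβRIII-KD 2 (0.0625). Of the markers of mesenchymal breast cancer cells, 5 of 5 had a mean signal above the median of all transcript clusters (VIM among them, at 12.84 to 13.10 in TβRIII-KD and 13.03 to 13.12 in controls), and 0 of these 5 were called. Of the epithelial markers 2 of 4 measured lay above the median, the keratins KRT8 (log2 fold change -0.36, adjusted p = 0.0871) and KRT18, of the leukocyte markers 1 of 4 (CD68, -0.29, adjusted p = 0.427) and of the endothelial markers 1 of 5, the VEGF receptor KDR, which fell by 1.73 (adjusted p = 0.00338). The defining markers EPCAM, CDH1, CDH5 and PTPRC lay below the median on every array. The summed signal of the marker lists, as log2, was 12.04 to 12.31 in TβRIII-KD and 12.43 to 12.71 in controls for the epithelial list and 9.99 to 10.44 in TβRIII-KD and 10.28 to 10.68 in controls for the leukocyte list. For the endothelial list it was 8.83 to 9.31 in TβRIII-KD and 9.94 to 10.35 in controls, and without KDR 7.96 to 8.19 in TβRIII-KD and 8.03 to 8.11 in controls. The part of these marker genes in the results was not tested. Median array signals lay between 7.67 and 7.71, and on the second principal component (21.9% of the variance) TβRIII-KD 3 scored 20.93, where the scores of the remaining 5 arrays ran from -12.52 to 6.19.

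Of the 10 YAP and TEAD genes, 1 passed the test, and it was lower in TβRIII-KD. This gene was F3. The other 9, among them the reporters CCN1, CCN2 and ANKRD1, did not pass, and their fold changes lay between -0.44 and 0.25 on the log2 scale, with 5 of the 10 above 0 and 5 below. A gene passed at an adjusted p under 0.05 from limma, with Benjamini-Hochberg adjustment over 22148 transcript clusters. Over all transcript clusters 3.35% passed, 1.24% as higher and 2.11% as lower. With the study's further limit of an absolute log2 fold change over 0.5, F3 was again the 1 member, where 2.26% of all transcript clusters passed. The median log2 fold change of the 10 was 0.05, beside 0.01 over all transcript clusters. By an unadjusted p under 0.05, 5 of the 10 members were reached (F3, CCN1, CCN2, AXL and AMOTL2), beside 15.2% of all transcript clusters. In the same 5 the arrays of the groups did not overlap, and neither did they for 20.7% of the transcript clusters on the array. Each of these 5 had p = 0.1 in a two-sided exact permutation test, and no lower value can be reached with 3 arrays per group.

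**Figure D1:**
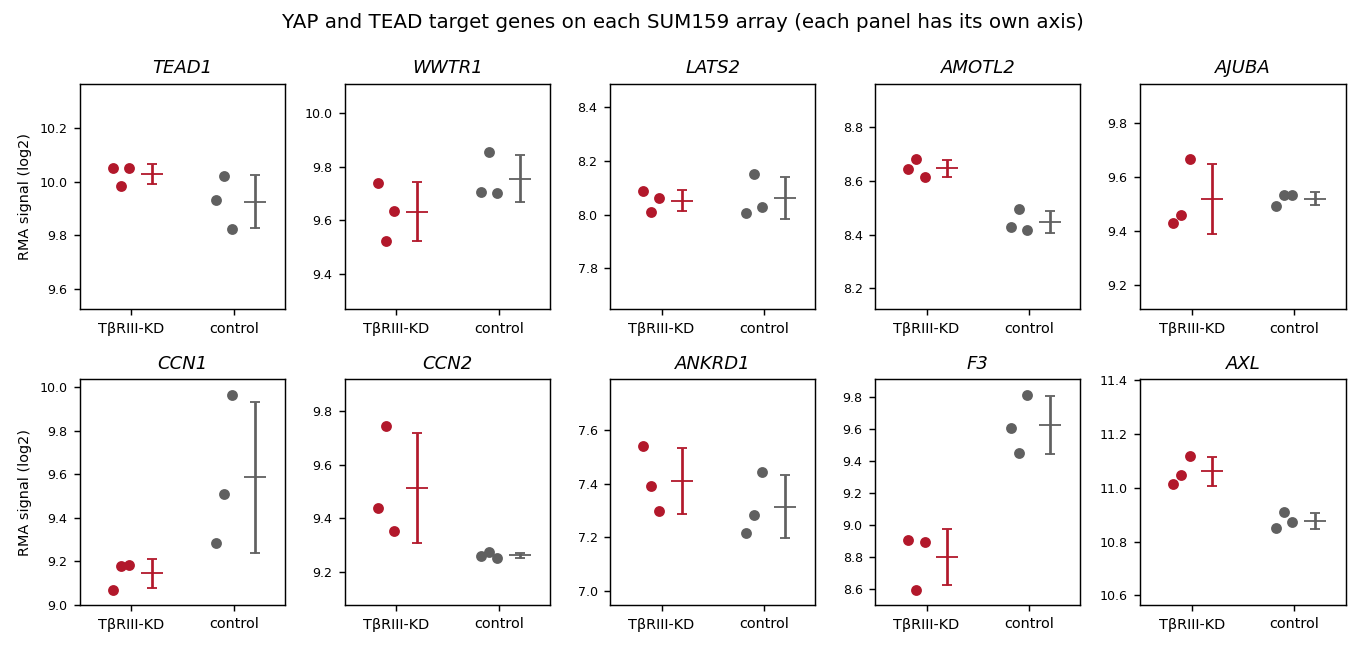
RMA signal (log2, vertical axis) of the 10 YAP and TEAD genes, where dots are single arrays (TβRIII-KD red, control grey) and the bars next to them are means ± SD (n = 3). F3 lies between 8.60 and 8.91 in TβRIII-KD and between 9.45 and 9.82 in controls, while the groups overlap for TEAD1, WWTR1, LATS2, AJUBA and ANKRD1.

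F3 encodes tissue factor, the membrane receptor that starts blood coagulation by binding factor VIIa. Its log2 signal was 8.91, 8.60 and 8.89 on the TβRIII-KD arrays and 9.61, 9.45 and 9.82 on the control arrays. The groups were well apart, with the highest TβRIII-KD array below the lowest control array. F3 fell by 0.83 on the log2 scale (SE 0.12, 95% interval -1.10 to -0.55, adjusted p = 0.00858 from limma), a signal 1.77-fold higher in controls. These are bulk cultures, in which fewer cells with F3 and less F3 RNA per cell cannot be told apart. F3 passed the test whichever 1 of the 6 arrays was left out (adjusted p 0.0109 to 0.0462). Of the 3 windows shown above, that of F3 is the one with a pair of AP-1 letter matches and no TEAD match. The windows of LATS2 and WWTR1, which did not pass, held no TEAD match either. A link between these letters and the fold changes was not tested.

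AXL, a receptor tyrosine kinase for GAS6 that marks mesenchymal breast cancer lines, had log2 signals of 11.02, 11.05 and 11.12 in TβRIII-KD, against 10.85, 10.91 and 10.87 in controls. The groups were close together but did not overlap, TβRIII-KD being on the high side. The log2 fold change was 0.18 (SE 0.07, 95% interval 0.03 to 0.34) and did not pass the test (adjusted p = 0.243). The largest change that this interval holds is 0.34 on the log2 scale, which is below the study's fold limit.

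CCN1 and CCN2 encode secreted matricellular proteins that bind integrins and heparan sulfate, and their values lay on opposite sides of 0. CCN1 had log2 signals of 9.07, 9.18 and 9.18 in TβRIII-KD, against 9.28, 9.51 and 9.97 in controls. The TβRIII-KD arrays were close together and all below the controls, which were spread widely (SD 0.07 in TβRIII-KD and 0.35 in controls). The log2 fold change was -0.44 (SE 0.15, 95% interval -0.79 to -0.09, adjusted p = 0.204), and it was -0.25 without control 3, the array with the highest CCN1 signal. CCN2 had log2 signals of 9.44, 9.74 and 9.35 in TβRIII-KD, against 9.26, 9.27 and 9.25 in controls. Here the spread was the other way round, with the controls nearly equal (SD 0.20 in TβRIII-KD and 0.01 in controls) and all below TβRIII-KD. The log2 fold change was 0.25 (SE 0.10, 95% interval 0.01 to 0.49, adjusted p = 0.299), and 0.13 without TβRIII-KD 2. Neither gene was called, and the difference between the 2 fold changes was not tested.

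ANKRD1, a nuclear ankyrin repeat protein first studied in heart muscle, was the only one of the 10 with a mean signal below the median of all transcript clusters. Its log2 signals were 7.54, 7.39 and 7.30 in TβRIII-KD and 7.21, 7.28 and 7.44 in controls. These values overlapped, with a log2 fold change of 0.10 (SE 0.09, 95% interval -0.12 to 0.31, adjusted p = 0.694).

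Of the 3 regulators among the members, AMOTL2 had arrays that did not overlap, and LATS2 and AJUBA lay close to 0. AMOTL2 encodes an angiomotin-like protein of cell junctions that binds YAP. Its log2 signals were 8.65, 8.68 and 8.62 in TβRIII-KD, against 8.43, 8.50 and 8.42 in controls. These were tight groups, all TβRIII-KD arrays being above all controls, at a log2 fold change of 0.20 (SE 0.07, 95% interval 0.04 to 0.36, adjusted p = 0.189). LATS2, the kinase that phosphorylates YAP and TAZ, had log2 signals of 8.09, 8.01 and 8.06 in TβRIII-KD and 8.01, 8.15 and 8.03 in controls. The groups overlapped, and the 95% interval of the log2 fold change ran from -0.18 to 0.16 (adjusted p = 0.966). AJUBA, a LIM domain protein that binds LATS kinases and limits their action, had log2 signals of 9.43, 9.46 and 9.67 in TβRIII-KD and 9.49, 9.53 and 9.53 in controls. TβRIII-KD 3 was the highest and TβRIII-KD 1 the lowest of all arrays for AJUBA, with a 95% interval of -0.19 to 0.19 (adjusted p = 0.997). The sign of the fold changes of LATS2 and AJUBA turned when single arrays were left out.

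TEAD1, a DNA-binding partner of YAP and TAZ, had log2 signals of 10.05, 9.98 and 10.05 in TβRIII-KD and 9.93, 10.02 and 9.82 in controls. The groups overlapped by control 2, at a log2 fold change of 0.10 (SE 0.08, 95% interval -0.07 to 0.28, adjusted p = 0.597). WWTR1 had log2 signals of 9.74, 9.52 and 9.63 in TβRIII-KD, against 9.71, 9.86 and 9.70 in controls. TβRIII-KD 1 lay among the controls, and the log2 fold change was -0.12 (SE 0.09, 95% interval -0.32 to 0.07, adjusted p = 0.566). For these 2 genes, as for LATS2, AJUBA, ANKRD1 and AXL, the interval holds no change of more than 0.34 in either direction, while those of AMOTL2, CCN2 and CCN1 reach 0.36, 0.49 and -0.79. These intervals are for single genes and are not adjusted over genes.

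**Figure D2:**
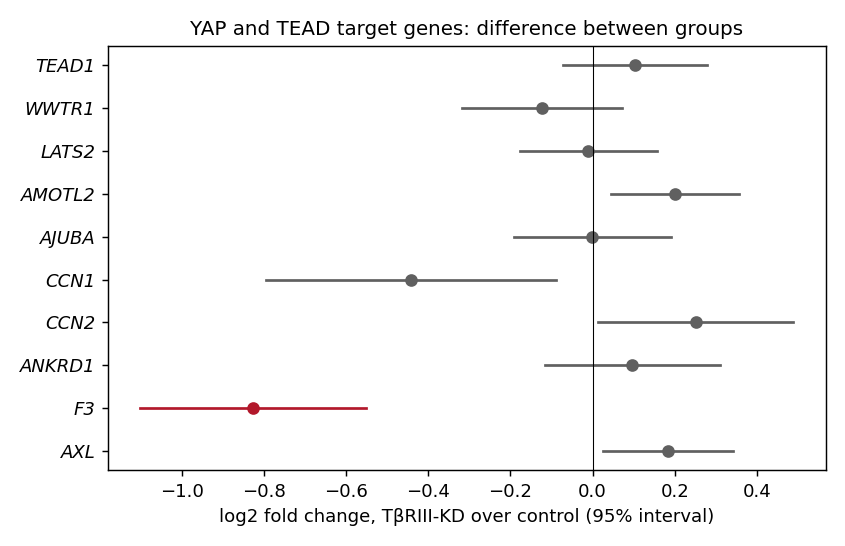
Fold changes on the log2 scale, TβRIII-KD minus control (horizontal axis), of the 10 YAP and TEAD genes, where dots give the estimate and lines its unadjusted 95% interval from limma (n = 3 arrays per group). F3, in red, is the gene that passed the test at -0.83, and the intervals of AXL, AMOTL2, CCN1 and CCN2, in grey, lie on one side of 0 though these genes did not pass.

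Beyond the members, the genes of the pathway and of its partner factors were taken from lists written from textbook knowledge. Of 97 genes on 7 lists, 93 were measured, and 15 of them (16.1%, members included) passed the test, 4 as higher and 11 as lower. Over all transcript clusters 3.35% passed, 1.24% as higher and 2.11% as lower. These shares also stand beside the counts given for each list below. Most listed genes had a mean signal above the median, such as 24 of 26 Hippo and 20 of 22 signature genes. In a limma fit to the transcript clusters at or above the median alone, 681 passed, so the share at like signal is higher than 3.35%. The lists overlap with each other and were written with earlier results of these arrays known. The 16.1% and the counts of each list are therefore not independent evidence. Of the YAP, TAZ, TEAD and VGLL factors, 1 of 10 passed, TEAD4, as lower. TEAD4 had log2 signals of 8.30, 8.37 and 8.21 in TβRIII-KD, against 8.67, 8.82 and 8.60 in controls, and fell by 0.40 (SE 0.09, adjusted p = 0.0435). The groups did not overlap, but TEAD4 failed the test whichever 1 array was left out (adjusted p 0.0806 to 0.140). YAP1 itself had log2 signals of 10.98, 10.83 and 10.69 in TβRIII-KD and 10.68, 10.76 and 10.59 in controls, which overlap, with a fold change of 0.16 (log2, SE 0.09, adjusted p = 0.491). TEAD2 and TEAD3 had fold changes of -0.08 and -0.14 (adjusted p = 0.722 and 0.492). The VGLL cofactors, which bind TEAD in place of YAP, lay between -0.02 and 0.10, with VGLL1 and VGLL2 below the median signal. The 10 factors had a median log2 fold change of -0.02.

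Of 26 Hippo kinases, adaptors and upstream regulators, 1 passed, FAT4, a giant atypical cadherin, as higher. FAT4 had log2 signals of 9.38, 9.37 and 9.68 in TβRIII-KD, against 8.97, 8.88 and 9.08 in controls. The groups did not overlap, and FAT4 rose by 0.50 (SE 0.10, adjusted p = 0.0362), a call kept only without TβRIII-KD 3 when single arrays were left out (highest adjusted p = 0.140). The list's fold changes lay between -0.32, for the kinase cofactor MOB1A, and the value of FAT4, with a median of 0.03, 14 of them above 0 and 12 below. MOB1A, named after its value was seen, did not pass (adjusted p = 0.0768).

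Of 22 genes of a YAP/TAZ target signature, 7 of them members, 3 passed, all as lower, F3, CCDC80 and ASAP1, and the list's median log2 fold change was 0.04. CCDC80, a secreted matrix protein, had log2 signals of 9.11, 8.75 and 8.93 in TβRIII-KD, against 9.72, 9.57 and 9.69 in controls. It fell by 0.73 (SE 0.10, adjusted p = 0.00731) and passed whichever 1 array was left out (highest adjusted p = 0.0454). ASAP1, a GTPase-activating protein for ARF at focal adhesions, had very even signals of 10.67, 10.68 and 10.69 in TβRIII-KD, against 11.05, 11.01 and 11.09 in controls. It fell by 0.37 (SE 0.07, adjusted p = 0.0217), and with single arrays left out it passed only without TβRIII-KD 3 (highest adjusted p = 0.105).

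Of 10 measured genes among 12 further reported YAP/TAZ targets, 2 were higher and 2 were lower, with a median log2 fold change of 0.06. The lower ones were EDN1 and ARHGAP29. EDN1, the precursor of the vasoconstrictor endothelin 1, had log2 signals of 7.24, 7.16 and 7.39 in TβRIII-KD, against 8.60, 8.79 and 8.56 in controls. It fell by 1.39 (SE 0.09, adjusted p = 0.000206), which is 2.62-fold higher in controls and the largest change on these lists, and passed whichever 1 array was left out (highest adjusted p = 0.00296). ARHGAP29, a GTPase-activating protein, had log2 signals of 7.73, 7.36 and 7.60 in TβRIII-KD, against 8.26, 8.48 and 8.43 in controls, and fell by 0.82 (SE 0.11, adjusted p = 0.0058). It too passed whichever 1 array was left out (highest adjusted p = 0.0275). DKK1, a secreted Wnt inhibitor, had log2 signals of 11.71, 11.13 and 11.14 in TβRIII-KD, against 10.19, 9.83 and 10.47 in controls, and rose by 1.16 (SE 0.19, adjusted p = 0.0153). CDK6, a cyclin D-dependent kinase, had log2 signals of 9.17, 9.05 and 9.30 in TβRIII-KD, against 8.51, 8.64 and 8.60 in controls, and rose by 0.59 (SE 0.09, adjusted p = 0.00858). No array overlapped between the groups for any of these 4 genes, which were picked by the test on the same arrays. The call of DKK1 was lost without control 1 (adjusted p = 0.0711) or TβRIII-KD 2 (0.0510) and that of CDK6 without control 1 (0.0532).

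**Figure D3:**
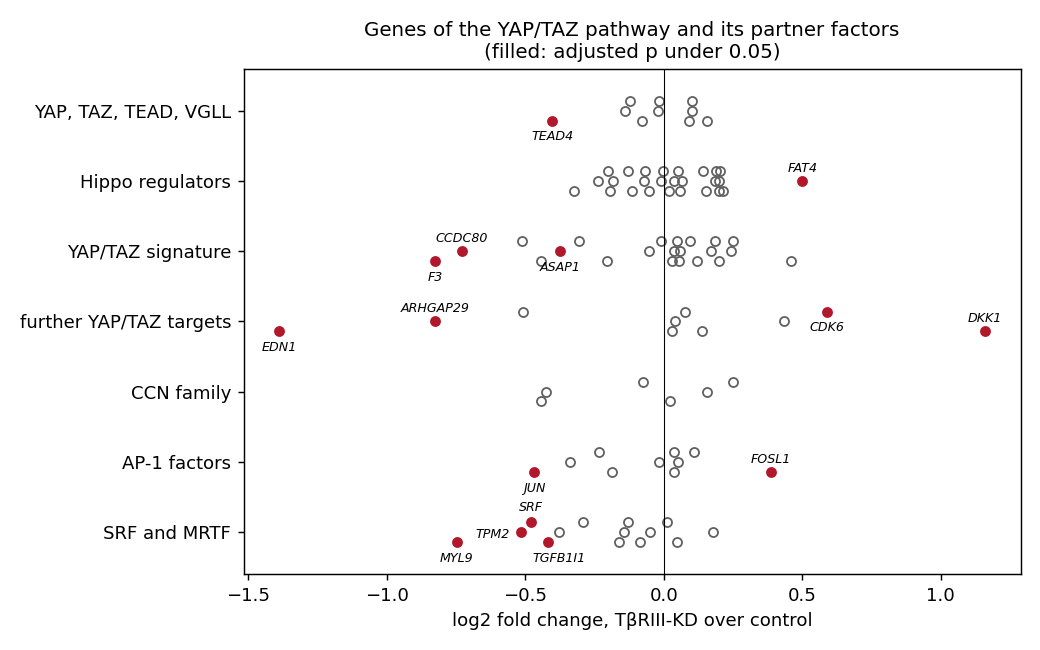
Fold changes on the log2 scale, TβRIII-KD minus control (horizontal axis), of each measured gene of the 7 pathway and partner lists (rows), with filled red dots for genes with an adjusted p under 0.05 from limma, which are named, and open dots for the rest. EDN1 (-1.39) and DKK1 (1.16) lie at the ends.

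Of the 6 CCN genes 0 passed in limma, with 2 at an unadjusted p under 0.05 (CCN1 and CCN2) and 0 by the methods' t-test after adjustment. CCN3, CCN5 and CCN6 had fold changes of 0.16, -0.07 and 0.02 (adjusted p = 0.825, 0.856 and 0.953). CCN4, a matricellular protein related to CCN1 and CCN2, had log2 signals of 7.89, 8.16 and 8.87 in TβRIII-KD, against 8.69, 8.65 and 8.85 in controls. TβRIII-KD 3 was as high as the controls while the other 2 TβRIII-KD arrays were lower, at a log2 fold change of -0.43 (adjusted p = 0.405). Without TβRIII-KD 3 it was -0.71 (adjusted p = 0.0113).

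Of 10 AP-1 factors, which bind many of the same regions as TEAD, 1 was higher and 1 was lower, and the median log2 fold change was 0.01. JUN had log2 signals of 8.36, 8.17 and 8.48 in TβRIII-KD, against 8.88, 8.76 and 8.77 in controls, and fell by 0.47 (SE 0.09, adjusted p = 0.0320). FOSL1, which encodes the JUN partner FRA1, had log2 signals of 9.59, 9.72 and 9.56 in TβRIII-KD, against 9.19, 9.23 and 9.28 in controls, and rose by 0.39 (SE 0.07, adjusted p = 0.0300). These 2 partners lay on opposite sides of 0, with no overlap between the groups for either. Each passed in 1 of the 6 fits that left out an array, the one without TβRIII-KD 3 (highest adjusted p = 0.143 for JUN and 0.138 for FOSL1).

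Of 14 measured genes among 16 SRF and MRTF factors and targets, which answer to the same actin state as YAP, 4 passed and all were lower, and 11 of the 14 fold changes lay below 0, with a median of -0.15. MYL9, a regulatory light chain of myosin, had log2 signals of 9.31, 9.52 and 9.55 in TβRIII-KD, against 10.21, 10.02 and 10.40 in controls, and fell by 0.75 (SE 0.11, adjusted p = 0.0103). SRF itself had log2 signals of 9.55, 9.75 and 9.80 in TβRIII-KD, against 10.04, 10.29 and 10.20 in controls, and fell by 0.48 (SE 0.10, adjusted p = 0.0356). The tropomyosin TPM2 fell by 0.51 (SE 0.08, adjusted p = 0.0142) and TGFB1I1, a focal adhesion protein, by 0.42 (SE 0.08, adjusted p = 0.0316). No array overlapped between the groups for these 4 genes, which were picked by the test on the same arrays. The arrays of the groups did not overlap for 9 of the 14 genes, beside 20.7% of all transcript clusters. Over all transcript clusters 2.11% passed as lower. Of the 14 genes, 11 had a mean signal above the median. The list was written with earlier results of these arrays known, so its counts are not independent evidence. Of the genes that did not pass, ACTG2, a smooth muscle actin (log2 fold change -0.38, adjusted p = 0.106), and MRTFB, a coactivator of SRF (0.18), had the lowest and highest fold changes, and the tropomyosin TPM1 (-0.29, adjusted p = 0.110) lay low while VCL (0.01) and TAGLN (0.05) lay near 0. The number passing was 0 without control 1, with an adjusted p of 0.0548 for MYL9, which passed when any other array was left out. It was 1 without TβRIII-KD 2 or control 3, 2 without control 2 and 3 without TβRIII-KD 1 or TβRIII-KD 3. SRF passed only without TβRIII-KD 3 (highest adjusted p = 0.127), TGFB1I1 only without TβRIII-KD 1 (highest 0.141), and TPM2 did not pass without control 1, TβRIII-KD 2 or control 3 (highest 0.0746).

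**Figure D4:**
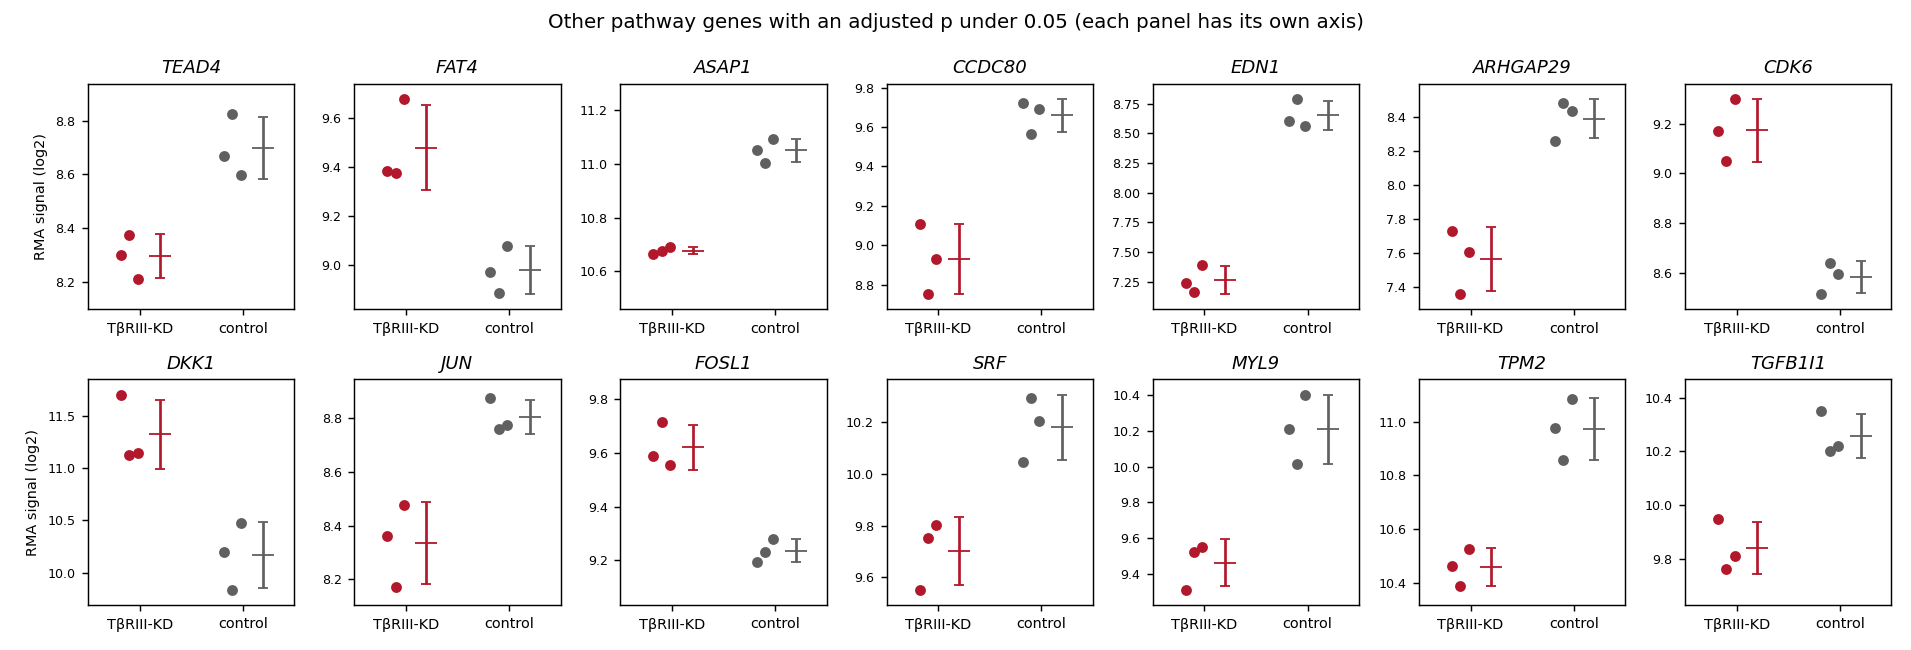
RMA signal (log2, vertical axis) of the 14 genes on the pathway and partner lists, members aside, that passed the test. Dots are single arrays (TβRIII-KD red, control grey) and the bars next to them are means ± SD (n = 3). No gene shows overlap between the groups, and EDN1 lies between 7.16 and 7.39 in TβRIII-KD and between 8.56 and 8.79 in controls. These genes were picked by the test on the same arrays, so the lack of overlap is not separate support.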

How the data were processed

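RNA from SUM159 three-dimensional cultures (3 TβRIII-KD and 3 control) was measured on Affymetrix human gene arrays. The deposited values are log2 signals, which the authors made with RMA in oligo (R 3.0.1): background correction, quantile normalization, which gives the arrays nearly equal distributions, and a summary per transcript cluster. The version of oligo is not given in the sources used here. Gene symbols came from GEO's platform annotation, and 19129 of 22148 transcript clusters had 1 symbol. A gene was read from its transcript cluster with the highest mean. TβRIII-KD was set against control with limma 3.58.1 in R 4.3.3 (no filter, two-sided, Benjamini-Hochberg over all transcript clusters), and the procedure was tested on simulated data. The simulation drew errors independently for each array, so it cannot show whether the arrays of a group are technical repeats. SE is limma's moderated standard error, and SD is over 3 arrays. The number of arrays limits the precision.

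The members and lists were chosen with earlier results of these data known. Genes named were the members, TGFBR3, all factors and CCN genes, up to 4 passing genes per list by fold change (or that with the smallest p) and the 3 nearest profiles to F3. Others were chosen after their values were seen. AREG, MRTFA, FLNA, ESRP1 and a few other listed genes were not analysed here. Alternatives were other moderation, array weights, the methods' t-test, filters, scalings, a replicate block and single arrays left out.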

Additional observations from a re-analysis of the deposited data

How the results depend on the processing

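F3 was called, and was the 1 member called, under every alternative except the methods' t-test (log2 fold change -0.83, adjusted p = 0.164), by which 0 members passed after adjustment and 3 at an unadjusted p under 0.05. That test called 25 transcript clusters after adjustment, TGFBR3 (-0.79, adjusted p = 0.198) not among them, and 0 genes of the factors, Hippo, signature, further target, AP-1 and SRF lists. Among transcript clusters at or above the median signal, 681 passed in limma. In that fit 2 Hippo genes passed, with MOB1A (-0.32, adjusted p = 0.0464), against 1 in the main fit. The signature genes that passed were 4 against 3, and the further targets 5 against 4. The fold change of LATS2 was 0.0083 with array weights and that of AJUBA 0.0279 after a repeat of quantile normalization, against -0.01 and -0.0011 as reported. SRF had an adjusted p of 0.0520 after that repeat.

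With single arrays left out, the number of transcript clusters called was 307 (without control 1) to 855, against 743, and without TβRIII-KD 2, control 3 or control 2 it was 353, 365 or 454. The members called were 1 to 1, the factors 0 to 0, Hippo genes 0 to 1, signature genes 2 to 3, further targets 2 to 5, CCN genes 0 to 1, AP-1 factors 0 to 2 and SRF genes 0 to 3. Fold changes lay between -0.0377 and 0.0338 for LATS2, -0.0763 and 0.0441 for AJUBA, -0.91 and -0.72 for F3 and -0.89 and -0.67 for TGFBR3. The cause of these changes was not tested, beyond the smaller number of arrays.

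Samples were not paired by replicate number in the main fit. The deviations of arrays with the same number correlated at -0.06, 0.11 and 0.31. For arrays with different numbers the values ran from -0.39 to 0.34, so the correlations do not settle whether the numbers mark pairs. With a replicate block in limma, 1 member (F3, adjusted p = 0.00149) and 938 transcript clusters were called. The 25 genes followed under it, the members, TGFBR3 and the other listed genes that had passed, all kept their side of the threshold. Listed genes that had not passed were not followed singly. The block called 4 signature genes and 5 further targets, against 3 and 4 in the main fit. Signal over background was not analysed here.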

Other observations

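F3 and ARHGAP29, a pair of the genes that fell by similar amounts (0.83 and 0.82 on the log2 scale), lie close together on chromosome 1 in the RefSeq gene order, with 1 measured coding gene between them, a fact noticed after their values were seen. That gene, ABCD3, a peroxisomal transporter, had log2 signals of 8.60, 8.34 and 8.42 in TβRIII-KD and 8.30, 8.48 and 8.33 in controls, at a log2 fold change of 0.08 (adjusted p = 0.735). On the far side of ARHGAP29 lie ABCA4 (-0.11, adjusted p = 0.496) and GCLM (-0.08, adjusted p = 0.871), and beyond F3 lie SLC44A3 (-0.08, adjusted p = 0.715) and CNN3 (0.05, adjusted p = 0.906). None of these neighbours passed the test. TGFBR3 lies on the same chromosome, with 21 measured coding genes between it and F3, of which ARHGAP29 passed as lower and FNBP1L, an adaptor that links membranes to actin, as higher (log2 fold change 1.26, adjusted p = 0.0207). The 21 genes had a median log2 fold change of 0.02.

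The 3 genes whose profiles over the 6 arrays were nearest to that of F3, by the Euclidean distance between log2 values centred on each gene's mean, were NAMPT (distance 0.10), which makes a precursor of NAD, SLC27A2 (0.17), a fatty acid transport protein, and ITGB2 (0.18), the integrin subunit of leukocytes. Over all genes the median distance to F3 was 1.12. NAMPT had log2 signals of 10.99, 10.62 and 10.93 in TβRIII-KD and 11.61, 11.53 and 11.78 in controls, at a log2 fold change of -0.79 (adjusted p = 0.00844). As in F3, TβRIII-KD 2 was the lowest array, control 3 the highest and control 2 the lowest of the controls. NAMPT was picked for its nearness to F3 on these arrays, so this shared order is not a separate result. NAMPT has 2 transcript clusters, and the values above are from the one with the higher mean. The second fell by 0.74 (adjusted p = 0.0134 from limma). Which place in the genome the probes of each cluster read was not checked.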
